A study of Mus musculus with 4 samples.

Results

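The kallikreins are serine proteases, and the serpins, the Kazal-type Spink proteins, the whey acidic protein (WAP) four-disulfide core or Wfdc proteins and the stefins (Stfa) are mostly protease inhibitors or relatives of them. They were taken as all genes whose symbol starts with Klk, Serpin, Spink, Wfdc or Stfa, and 94 of the 17016 genes named on the array belonged to them. The 94 comprised 23 Klk genes, 16 clade A serpins (Serpina), 24 clade B serpins (Serpinb), 10 other serpins, 7 Spink genes, 11 Wfdc genes and 3 Stfa genes, and 93 of them were usable on all 4 arrays. Klk1b8, the remaining one, was lost to outlier spots. The brightest probe stood for each gene.

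RNA was taken from mouse skin 48 h after photodynamic treatment, in which a cream of methyl aminolevulinate (Metvix) was left on the skin for 2.5 h in darkness before red light of 636 nm from a LED lamp. Cells turn methyl aminolevulinate into the photosensitiser protoporphyrin IX, so the light produces reactive oxygen species. The 4 groups were treated tail skin, lit with 10 J/cm2, untreated tail skin, treated back skin, lit with 2.5 J/cm2, and untreated back skin. The backs were shaved and the tails were not, and the labels do not say whether controls received cream, shaving or light. No strain, age or sex is given in the labels. The design had 3 animals per group and each group had 1 one-colour array from 200 ng of RNA; whether the animals were pooled is not stated. Tail tissue is called skin in the sample labels and epidermis in the extraction protocol, so the layer is uncertain. With 1 array per group no comparison could be checked against replicates, and no test was run.

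In the epidermis the tissue kallikreins form a cascade that cuts the desmosomes holding dead cells together, and the trypsin-like Klk5 and Klk14 switch on themselves and the chymotrypsin-like Klk7. The Kazal inhibitor LEKTI, made from Spink5, restrains them, and its loss in humans causes Netherton syndrome. Serpins trap a protease by offering a reactive loop that locks both molecules together. Clade B serpins stay mostly inside cells and protect keratinocytes and leukocytes from their own proteases, clade A serpins are mostly secreted, and stefins block cysteine cathepsins.

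Levels are given as processed signal divided by the 75th percentile of that array, so a level of 1 equals that percentile. They compare arrays for one gene and say nothing of one gene against another. Differences are log2 of the ratio of these levels, and calls of higher or lower start at 2-fold. A probe gives only a bound when 1 array of a pair was saturated or when its spot there was dim, meaning not well above background. The 75th percentile itself was 908.8 in treated tail, 7261 in control tail, 1203.8 in treated back and 1860.4 in control back. Saturation therefore set in at a level of 64.1 in treated tail but already at 8.08 in control tail, against 47.3 in treated back and 31.4 in control back. Of the 93 members, 10, 17, 6 and 10 were saturated and 18, 14, 24 and 21 were dim, in the order treated tail, control tail, treated back, control back. Across all genes the median spot error of a difference was 0.20 on the log2 scale, which covers spots and not animals. The epidermal keratins Krt1, Krt5, Krt10 and Krt14 were saturated on all 4 arrays.

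Back skin is described first, because more members had a value there. In treated back, 14 of the 68 members with a value were higher and 20 were lower, with a median difference of -0.30 against -0.01 over all genes. Over all 13461 genes with a value, 13.6% were higher and 12.6% were lower. Among the members these shares were 20.6% and 29.4%, so the lower share stood further above that of all genes. The higher members included 5 clade B serpins of chromosome 13. The lower members included 6 Wfdc genes, 4 kallikreins and the clade B serpins Serpinb12, Serpinb13, Serpinb7 and Serpinb8 of chromosome 1.

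In treated tail, 31 of the 60 members with a value were higher and 3 were lower, with a median of 1.15 against 0.33 over all genes. Of all 12858 genes with a value in the tail, 27.2% were higher and 6.55% lower, against 51.7% and 5% of the members. The tail comparison depended on the scaling. After cyclic loess, which removes a trend with brightness, 19 members were higher and 5 lower, with 14.2% of all genes higher and 12.1% lower. Among members with a signal of at least 200 on both arrays, 16 of 32 were higher and 1 was lower, where 15.6% of all such genes were higher and 4.91% lower. The higher group contained 10 of 12 kallikreins with a value, both stefins with a value, 4 of 5 Spink genes and 5 of 6 Wfdc genes. Marker lists of other cell types moved too in treated tail. Counts of higher genes were 6 of 8 for skeletal muscle, 5 of 6 for endothelium, 6 of 8 for sebocytes, 4 of 9 for macrophages and 1 of 5 for submandibular gland. After cyclic loess they were 3 of 9 for skeletal muscle, 4 of 6 for endothelium and 4 of 8 for sebocytes. Their part in the members' counts was not tested.

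**Figure D1:**
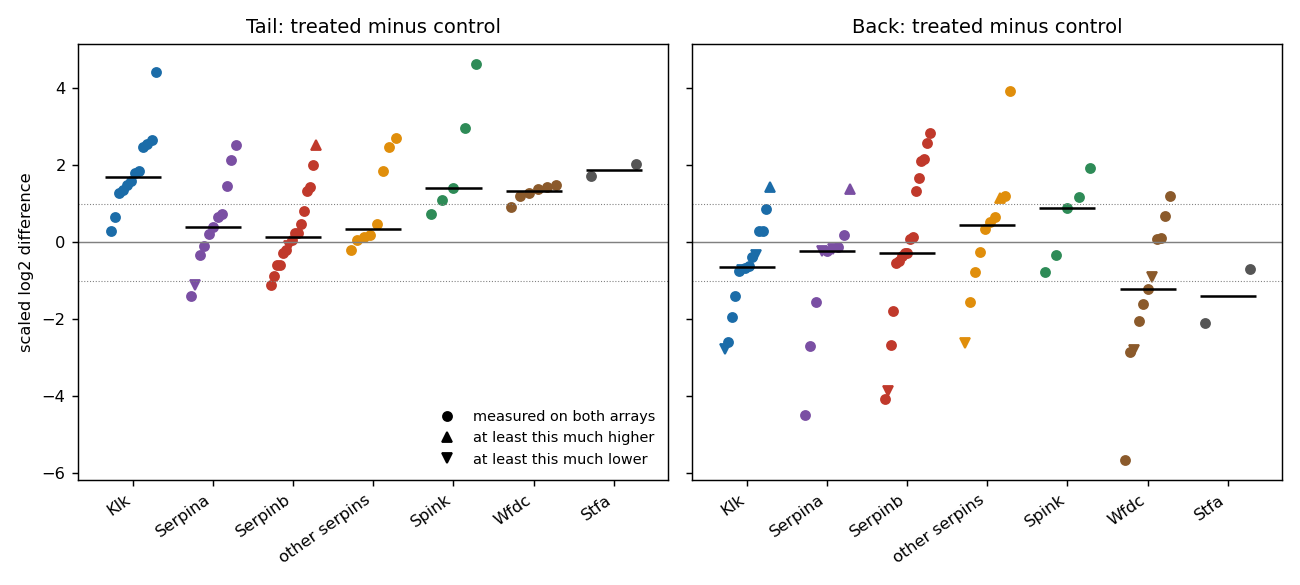
Scaled log2 difference of each member in the tail (left) and the back (right), treated minus control, by family; the black line is the family median, dotted lines mark 2-fold, and triangles are bounds. Kallikreins with a value lay above 0 in the tail, all 12 of them, while 4 of 14 lay above 0 in the back; the Serpinb genes spread from -4.07 to 2.85 in the back.

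The kallikreins, the proteases of the set, were mostly higher in treated tail and mostly below 0 in treated back. In the tail 10 of 12 with a value were higher, none was lower and the median was 1.70. Over all genes 27.2% were higher and 6.55% lower there. In the back 1 of 14 was higher and 4 were lower, and the median was -0.65, with 13.6% of all genes higher and 12.6% lower. The 1 higher in the back was plasma kallikrein, Klkb1, called only as a bound, so no kallikrein of chromosome 7 was higher. After cyclic loess 7 of 12 were higher in the tail, against 14.2% of all genes.

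Klk6, a trypsin-like kallikrein of keratinocytes, had a level of 21.5 in treated tail, against 1.01 in control tail. In back skin it was saturated on both arrays, at 56.8 in treated and 37.9 in control. The tail difference was 4.41, or 21.3-fold, and it was 3.35 after cyclic loess. The back gave no value for Klk6, and control back was at least 37.4-fold higher than control tail, so the low array was control tail.

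Klk10, another epidermal kallikrein, had a level of 2.23 in treated tail and 0.352 in control tail. Its level was 2.55 in treated back and 1.41 in control back. The differences were 2.66 in the tail and 0.86 in the back, so the gene was called in the tail and fell short of 2-fold in the back. Klk4, best known for processing tooth enamel, gave 0.479 in treated tail against 0.0824 in control tail, a difference of 2.54, and 0.358 in treated back against 0.292 in control back, a difference of 0.30. For both genes control tail was the lowest of the 4 arrays and the other 3 lay closer together.

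Klk1, the true tissue kallikrein that frees kinins from kininogen, went opposite ways. Its level was 0.835 in treated tail against 0.151 in control tail, and 0.474 in treated back against 1.83 in control back. It was thus 5.54-fold higher in the tail and 3.86-fold lower in the back. A second, dimmer probe of Klk1 differed by 0.87 in the tail and had no value in the back. Klk14, the activating trypsin-like member, also went opposite ways, with 0.0621 in treated tail against 0.0254 in control tail and 0.0299 in treated back against 0.0782 in control back. Its differences were 1.29 and -1.39, and they were 0.71 in the tail after cyclic loess and -0.53 in the back after normexp background correction, both under 2-fold.

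Klk5, which starts the desquamation cascade, had a level of 18.5 in treated tail and was saturated at 8.47 in control tail, which gives no value. In back skin it was 5.19 in treated skin against a saturated 35.2 in control skin, so treated back was at least 6.78-fold lower. Klk9 gave 1.37 in treated tail against 1.13 in control tail, and 0.958 in treated back against 5.75 in control back. Control back was the high array for Klk9, with a back difference of -2.58 and a tail difference of 0.29. Klk8, or neuropsin, was 23.2 in treated back against a saturated 38.4 in control back, a difference of -0.73 or lower. Klk11 differed by 0.66 in the tail and -0.75 in the back.

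Klk7, the chymotrypsin-like protease of desquamation, was saturated on all 4 arrays. A dimmer second probe of it read 30.3 in treated tail and 36.3 in treated back and was saturated in both controls, so the treated skins differed by 0.26. Klk15 set the sites apart, with 0.382 in treated tail and 0.127 in control tail against 0.019 in treated back and 0.0247 in control back. Its tail difference was 1.59 and its back difference -0.38.

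The Klk1b genes are near-identical rodent copies of Klk1, whose probes may share targets. Of the 10 usable Klk1b genes on the array, Klk1b3, Klk1b4, Klk1b9 and Klk1b24 had a value in the tail, between 1.36 and 1.86, at levels of 0.0587 or less on the tail arrays. Klk1b26 had only bounds, of -0.33 or lower for treatment in the back and of at least 2.63 for control back over control tail, and 5 more were not well above background on any array. Plasma kallikrein, Klkb1, lies on chromosome 8 and not in the cluster of chromosome 7, and is a liver enzyme that frees bradykinin. It read 0.0288 in treated back and was not well above background in control back, a difference of at least 1.43, close to the detection limit and 0.83 after normexp.

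A list of 17 held genes that act with the kallikreins and also other late genes of the skin barrier, and 15 of them were on the array. In the back 1 of 11 with a value was higher and 4 were lower, with a median of -0.73. Over all genes 13.6% were higher and 12.6% lower there. Prss8, or prostasin, a protease of the activating cascade, was 5.24 in treated back against 21.6 in control back, a difference of -2.04. The desmosomal cadherins Dsg1b and Dsc1 differed by -1.89 and -1.34, and the barrier protease Casp14 differed by -3.01 or lower. Hepsin, Hpn, was higher by 1.15. The protease receptor F2rl1, which kallikreins can cut, differed by 0.18. In the tail 3 of 8 were higher and 1 lower, against 27.2% and 6.55% of all genes, and the lower one was Prss8 at -1.06. After cyclic loess 1 of 9 was higher and 3 were lower in the tail, against 14.2% and 12.1% of all genes. The list's median was then -0.35 in place of 0.30.

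Clade A serpins were mostly lower in back skin than in tail skin, in 8 of 9 with a value between the treated skins and in 6 of 10 between the untreated skins. Over all genes 20.5% and 17.2% were lower in these pairs. After cyclic loess the counts were 6 of 9 and 8 of 11, against 17.5% and 21.1% of all genes. With a signal of at least 200 on both arrays only 1 and 3 clade A serpins remained, of which 1 and 2 were lower. Serpina12, or vaspin, an inhibitor of Klk7, had a level of 5.74 in treated tail and 3.67 in control tail. In back skin it was 0.117 in treated against 2.64 in control. Treated back was the lowest of the 4 arrays, 22.5-fold below control back, while the tail difference was 0.64. Serpina9, known in human germinal-centre B cells, had 10.9 in treated tail and 8.22 in control tail, the last being within the saturating range of that array. It had 0.231 in treated back against 1.49 in control back, a difference of -2.69.

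Serpina1d, an alpha-1-antitrypsin, was 2.12 in treated tail against 0.484 in control tail, and 0.0635 in treated back against 0.0559 in control back. The tail difference was 2.13 and the back difference 0.19. Serpina3b differed by -0.11 in the tail and by -1.56 in the back. Serpina3n, an acute-phase inhibitor that blocks granzyme B, was 0.0588 in treated tail against 0.0103 in control tail, and 0.0279 in treated back against a dim reading in control back. It was higher by 2.52 in the tail and by at least 1.38 in the back, or 0.91 in the back after normexp. Serpina3c and Serpina5 were the lower ones in the tail, at -1.40 and at -1.12 or lower; Serpina3c turned to 3.35 under normexp, so its direction is not settled. In all, 3 of 11 with a value were higher and 2 lower in the tail, against 27.2% and 6.55% of all genes. In the back 1 of 9 was higher and 3 lower, against 13.6% and 12.6% of all genes. The Serpina1 and Serpina3 genes are near-identical copies and may share targets. Serpina6, Serpina7 and Serpina10, which the liver mainly makes, and Serpina1f were dim on all 4 arrays.

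Clade B serpins split by chromosome in the back. On chromosome 13, 5 of 8 with a value were higher in treated back, none was lower and the median was 1.51. On chromosome 1, 1 of 9 was higher and 4 were lower, with a median of -0.54. Over all genes 13.6% were higher and 12.6% lower in the back. In the tail 4 of 10 were higher and none lower on chromosome 13, and none of 6 higher and 1 lower on chromosome 1. Of all genes 27.2% were higher and 6.55% lower there. After cyclic loess the tail counts were 1 of 10 higher on chromosome 13 and 3 of 7 lower on chromosome 1. The all-gene shares were then 14.2% higher and 12.1% lower.

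Serpinb1a, which inhibits the neutrophil proteases elastase, cathepsin G and proteinase 3, had a level of 13 in treated back against 2.19 in control back. In the tail it was 5.09 in treated and 4.94 in control skin. Treated back was the highest of the 4, 5.94-fold above its control, and the tail difference was 0.05. Its copy Serpinb1c had 1.46 in treated back against 0.203 in control back, and 0.445 in treated tail against 0.54 in control tail. The back difference of Serpinb1c was 2.85, and 2.71 with its second probe. Serpinb1b differed by 2.17 in the back and -0.60 in the tail. Near-identical sequence among these 3 copies means that the probes may not read them apart.

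Serpinb6a, an inhibitor of cathepsin G, read 19.2 in treated back against 7.58 in control back, and 3.65 in treated tail against 4.19 in control tail. Its back difference was 1.34 and its tail difference -0.20. Serpinb6d was higher at both sites, by 1.67 in the back and 1.43 in the tail. Serpinb9, the granzyme B inhibitor of lymphocytes, differed by -0.27 in the back and could only be bounded in the tail. Serpinb9d, Serpinb9e and Serpinb9g were higher in the tail, by 2.00, by 1.34 and by at least 2.52, all at levels of 0.0625 or less. After cyclic loess Serpinb9d at 0.89 and Serpinb9e at 0.69 were under 2-fold.

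Neutrophil markers were also higher in the back, in 9 of 12 with a value, with none lower and a median of 2.13. Over all genes 13.6% were higher there. Their summed level was 112 in treated back against 43.4 in control back, and 145 in treated tail against 9.43 in control tail. S100a8 and S100a9, which keratinocytes can also make, carried most of it. Saturated markers numbered 2 in treated back, 1 in control back, 2 in treated tail and 0 in control tail. The sums thus depend on where each array saturates and do not measure the size of a change. In the tail 8 of 10 neutrophil markers were higher, against 27.2% of all genes. Serpinb1a, Serpinb1b and Serpinb1c differed there by only 0.05, -0.60 and -0.28. After cyclic loess 5 of 11 neutrophil markers were higher in the tail, against 14.2% of all genes. Retnlg, a neutrophil gene, was higher by 5.47 in the back and by at least 3.89 in the tail, and the chemoattractant receptor Fpr2 was higher by 4.15 in the back. Csf3r and Mmp8 were higher by at least 4.60 and 4.58 in the back and not well above background on either tail array. The defining granule genes Ngp and Camp were not well above background on any array. In bulk skin, more cells of a type and more RNA per cell cannot be told apart, and the part of neutrophils in the Serpinb1 values was not tested.

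Serpinb10, known as bomapin in human blood cells, was 2.3 in treated tail against 4.96 in control tail, and 6.64 in treated back against 1.53 in control back. It was thus lower in the tail, at -1.11, and higher in the back, at 2.12, the only member with that pattern. Over all 12038 genes with a value at both sites, 0.989% had that pattern. It kept its calls after cyclic loess, at -1.51 and 2.13.

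Other genes of the same cluster were lower in the back. Serpinb13, or headpin, whose human form inhibits cathepsin L, was saturated in both tails, at 70.6 in treated and 9.05 in control. It was 0.452 in treated back against 7.59 in control back, 16.8-fold lower. Serpinb12, an inhibitor of trypsin-like proteases, was 2.28 in treated back against a saturated 33.2 in control back, a difference of -3.87 or lower. Its second, unsaturated probe differed by -4.93, so both probes gave the same direction. Serpinb7, whose loss in humans causes a palmoplantar keratosis, was 2.68 in treated back against 17 in control back and 4.24 in treated tail against 7.73 in control tail. Its differences were -2.67 and -0.87. Serpinb8, which binds furin in humans, was 3.28 in treated back against 11.2 in control back, a difference of -1.78, and differed by -0.58 in the tail.

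Serpinb2, or plasminogen activator inhibitor 2, was saturated in both back arrays and in control tail, so neither treatment comparison had a value. The treated skins could be set side by side, at a saturated 54.2 in treated back against 16.6 in treated tail, at least 3.27-fold higher in the back. Serpinb5, or maspin, was saturated on all 4 arrays. Serpinb3a, Serpinb3b and Serpinb3c, the mouse squamous cell carcinoma antigens, which inhibit cysteine cathepsins, differed by -0.49, -0.27 and -0.54 in the back. In the tail Serpinb3a and Serpinb3c both differed by 0.25, and a second probe of Serpinb3a gave 1.06 in the tail and -1.34 in the back. The control tail level of Serpinb3c, 8.71, lay within the saturating range of that array. The tail value of Serpinb3c was -0.14 after cyclic loess, -0.54 after quantile normalization and -0.62 with normexp. These copies are also near-identical.

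Some epidermal differentiation genes were also lower in treated back. Of the 9 suprabasal keratinocyte markers on the array, only 4 had a value in the back. All 4 were lower, with a median of -2.49, against 12.6% of all genes. Saturation reached 4 of the 9 in treated back and 6 in control back. Without a filter, with saturated readings left in, the median was 0.36. Casp14 and Dsc1 among the 4 with a value also belong to the list described with the kallikreins, so the 2 lists are not independent. The late keratin Krt2 was 0.349 in treated back against 32.5 in control back, a difference of -6.54, and involucrin, Ivl, differed by -1.98. The summed level of the 9 suprabasal markers was 291 in treated back against 300.5 in control back, most of it from saturated genes. Basal markers were higher in 2 of 3 cases, against 13.6% of all genes. The part of these shifts in the serpin values was not tested.

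**Figure D2:**
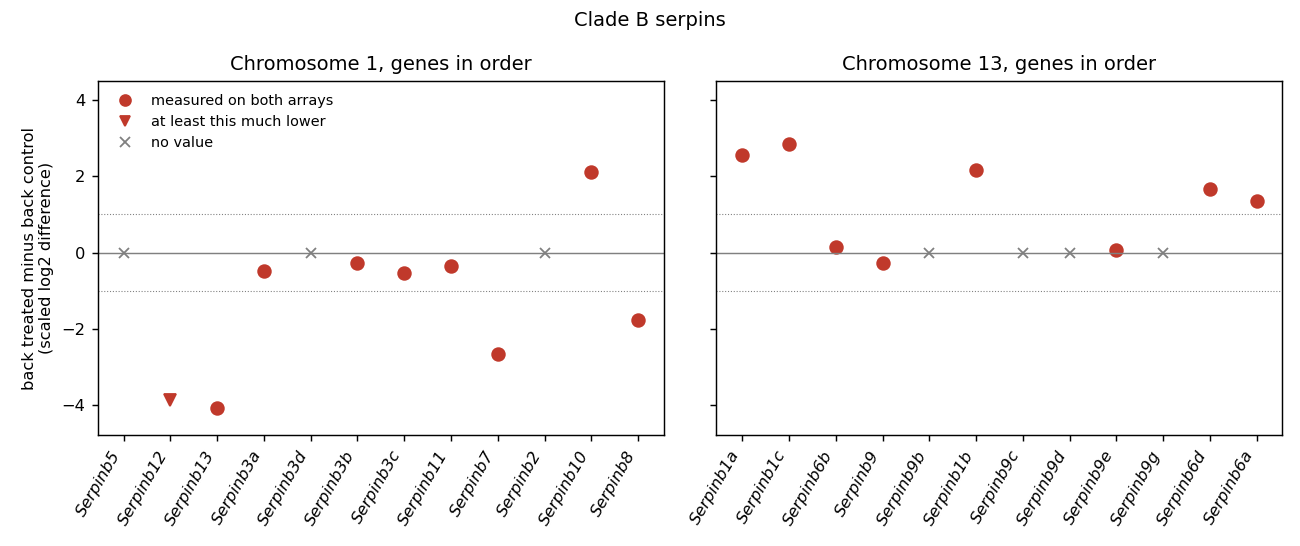
Clade B serpins in gene order on chromosomes 1 and 13, with the scaled log2 difference of back treated minus back control; triangles are bounds and crosses at 0 mark genes without a value. Serpinb10 at 2.12 is the 1 gene with a value above 0 on chromosome 1, and no gene with a value on chromosome 13 lies below -0.27.

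Promoters of 2 genes of the chromosome 1 cluster that went opposite ways in the back are shown with their RefSeq sequence, 250 bases before to 50 after the annotated start. Capitals mark the motifs searched on both strands, AP-1 (TGANTCA), the antioxidant response element (TGACNNNGC), C/EBP (TTGCNNAA) and the TATA box (TATAAA). Serpinb12 has 2 starts in the table and the first is shown.
Serpinb10 promoter, GRCm38.p6 chr1:107528753-107529052, plus strand: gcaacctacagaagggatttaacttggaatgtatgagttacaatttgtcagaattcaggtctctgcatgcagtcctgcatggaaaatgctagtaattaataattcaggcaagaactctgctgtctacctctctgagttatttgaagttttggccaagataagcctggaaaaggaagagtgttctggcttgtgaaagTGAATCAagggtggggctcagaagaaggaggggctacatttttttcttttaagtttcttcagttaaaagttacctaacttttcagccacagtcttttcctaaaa
Serpinb12 promoter, GRCm38.p6 chr1:106934199-106934498, plus strand: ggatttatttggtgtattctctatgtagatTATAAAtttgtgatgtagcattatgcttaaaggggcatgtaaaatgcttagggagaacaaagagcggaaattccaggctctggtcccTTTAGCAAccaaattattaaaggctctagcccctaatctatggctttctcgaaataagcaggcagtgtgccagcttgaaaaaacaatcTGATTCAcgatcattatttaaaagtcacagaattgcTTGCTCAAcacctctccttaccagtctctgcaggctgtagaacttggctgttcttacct
The AP-1 letters began at position -54 in Serpinb10 and at -45 in Serpinb12, counted from the start, so the higher and the lower gene both held them. Serpinb12 also held 2 C/EBP matches, at -133 and -9, and a TATA box match far upstream at -220. Of 75 members with a promoter in the table, 12% held the AP-1 letters, against 7.93% of all 27025 promoters. C/EBP letters were in 21.3% of the members' promoters against 10.8% of all, TATAAA in 21.3% against 14.2%, and the antioxidant response element in 14.7% against 12.5%. A match is a description of letters and not a binding site.

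The other serpins, of several clades, include inhibitors of clotting and complement proteases and some members that inhibit none. Serpine2, or protease nexin 1, differed by 0.66 in the back and -0.20 in the tail. Serpinh1, or Hsp47, is a collagen chaperone that inhibits no protease. It was 39.8 in treated back against 17.4 in control back, a difference of 1.19, and saturated in control tail. Serping1, the C1 inhibitor of complement and contact activation, was 0.0489 in treated tail against 0.0075 in control tail, higher by 2.70. In the back it was 0.0238 in treated against a dim reading in control, higher by at least 1.16, or 0.74 after normexp. Serpini2 and Serpinf1, or pigment epithelium-derived factor, were higher in the tail, by 2.49 and 1.84, and differed by 0.35 and 0.52 in the back. Serpini1, or neuroserpin, was not well above background in treated back, a difference of -2.61 or lower, and Serpind1, heparin cofactor 2, differed by -1.56 there, or by -0.38 with normexp. In all, 3 of 10 were higher and 2 lower in the back, against 13.6% and 12.6% of all genes. In the tail 3 of 8 were higher and none lower, against 27.2% and 6.55% of all genes.

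Proteases and related genes, most of them of kinds these inhibitors act on, were described from a list of 22. Of these, 6 of 15 with a value were higher and 3 lower in the back, against 13.6% and 12.6% of all genes. Coagulation factor X, F10, was 0.603 in treated back against 0.0188 in control back, 32.1-fold higher. Plasminogen, Plg, was higher by 2.00 and the mast cell chymase Mcpt4 by 1.67, and thrombin, F2, differed by -1.47. The plasminogen activators Plau and Plat differed by 0.92 and -0.12. The cysteine protease cathepsin L, Ctsl, was saturated on all 4 arrays. In the tail 7 of 14 were higher and none lower, against 27.2% and 6.55% of all genes. After cyclic loess 3 of 15 were higher, against 14.2% of all genes, and the median was 0.13 in place of 0.97. A list mostly of inhibitors outside the 5 name families gave 9 of 11 higher in the tail, led by A2m at 3.49, Cstdc4 at 2.98 and Timp4 at 2.74. In the back none of its 15 genes with a value was past 2-fold. After cyclic loess, 6 of its 12 genes with a value were higher in the tail.

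Among Spink genes, Spink12 had the largest measured difference of any member in the tail. Its level was 17.2 in treated tail against 0.692 in control tail, 24.9-fold higher, and it was 0.391 in treated back against 0.211 in control back. The tail difference was 4.64, and 4.68 after cyclic loess, and the back difference was 0.89. Spink6, which inhibits kallikreins in human skin, was 36.5 in treated tail against 4.66 in control tail, and 0.25 in treated back against 0.11 in control back. It was higher at both sites, by 2.97 in the tail and 1.19 in the back, at levels far apart. Spink2 was also higher at both, by 1.09 in the tail and 1.94 in the back, and the tail value was under 2-fold after cyclic loess, at 0.94. Spink5, the LEKTI gene, was saturated on all 4 arrays, so its own change could not be read. In the family, 4 of 5 with a value were higher in the tail and 2 of 5 in the back, with none lower. Over all genes 27.2% were higher in the tail and 13.6% in the back.

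All 11 Wfdc genes had a value in the back. Of the 11, 1 was higher and 6 were lower, and the median was -1.21. Over all genes 13.6% were higher and 12.6% lower. Wfdc12, an antibacterial WAP protein of keratinocytes, was saturated in both tails, at 74.8 in treated and 8.78 in control. It was 0.368 in treated back against 18.5 in control back, 50.2-fold lower, the lowest difference of all members. Wfdc18, also called Expi, was 0.541 in treated back against 3.87 in control back, a difference of -2.84, and its second probe gave -2.83. Wfdc17, an activated-macrophage WAP protein, was 0.882 in treated back against 3.66 in control back, a difference of -2.05. Macrophage markers, by contrast, were higher in 5 of 10 cases in treated back and lower in none. Wfdc21 was 4.68 in treated back against a saturated 32.6 in control back, a difference of -2.80 or lower. Wfdc17, Wfdc18 and Wfdc21 lie together on chromosome 11, and all 3 were lower.

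Wfdc5, a keratinocyte WAP gene, was 3.76 in treated back against 11.5 in control back, a difference of -1.61, with -1.66 from its second probe. Wfdc2, or HE4, was the exception, higher at both sites, by 1.19 in the back and 1.29 in the tail. Wfdc1 went opposite ways, with 0.595 in treated tail against 0.222 in control tail and 0.227 in treated back against 0.526 in control back. Its differences were 1.42 and -1.21. Wfdc3, Wfdc15b and Wfdc6a were higher in the tail, by 1.48, 1.38 and 1.21, and differed by 0.67, by 0.12 and by -0.91 or lower in the back. None of these tail values held 2-fold throughout, with Wfdc15b at 0.73 and Wfdc6a at 0.34 after cyclic loess and Wfdc3 at 0.93 with normexp.

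The promoters of Wfdc12 and Wfdc18, which share a WAP fold but lie on different chromosomes and were both lower in the back, are given in the same way.
Wfdc12 promoter, GRCm38.p6 chr2:164190509-164190808, minus strand: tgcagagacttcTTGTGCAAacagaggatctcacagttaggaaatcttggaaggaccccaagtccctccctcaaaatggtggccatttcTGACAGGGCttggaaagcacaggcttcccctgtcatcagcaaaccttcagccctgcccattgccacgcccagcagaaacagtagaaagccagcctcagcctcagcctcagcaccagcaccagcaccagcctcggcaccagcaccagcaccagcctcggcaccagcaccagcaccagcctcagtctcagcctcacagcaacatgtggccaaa
Wfdc18 promoter, GRCm38.p6 chr11:83708754-83709053, plus strand: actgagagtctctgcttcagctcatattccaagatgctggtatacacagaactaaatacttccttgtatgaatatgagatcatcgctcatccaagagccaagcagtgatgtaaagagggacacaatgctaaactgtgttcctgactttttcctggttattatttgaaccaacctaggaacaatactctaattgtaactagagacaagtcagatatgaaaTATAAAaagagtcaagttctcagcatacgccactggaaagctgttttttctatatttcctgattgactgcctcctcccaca
Wfdc12 held an antioxidant response element match at -161 and a C/EBP match at -238, and Wfdc18 a TATA box match at -31. Of the 15 lower members with a promoter, 3 held the antioxidant response element letters, against 1 of the 10 higher ones. Over all promoters 12.5% held these letters. Among the same 15 and 10, AP-1 was in 3 and 1, C/EBP in 4 and 1 and TATAAA in 5 and 1. Over all promoters these shares were 7.93%, 10.8% and 14.2%. Some promoters, such as those of Serpinb12 and Klkb1, held several of the motifs, so the counts are not independent. These small counts were not tested.

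The stefin A genes were higher in treated tail and not in treated back. Stfa2 was 22.4 in treated tail against 5.54 in control tail, and 11.2 in treated back against 18 in control back, with differences of 2.02 and -0.68. Stfa2l1 was 21.9 in treated tail against 6.7 in control tail, and 7.12 in treated back against 30.2 in control back. It was higher by 1.71 in the tail and 4.24-fold lower in the back. After cyclic loess the tail differences were 1.03 for Stfa2 and 0.70 for Stfa2l1. Stfa3 was saturated on all 4 arrays, and these copies are near-identical.

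**Figure D3:**
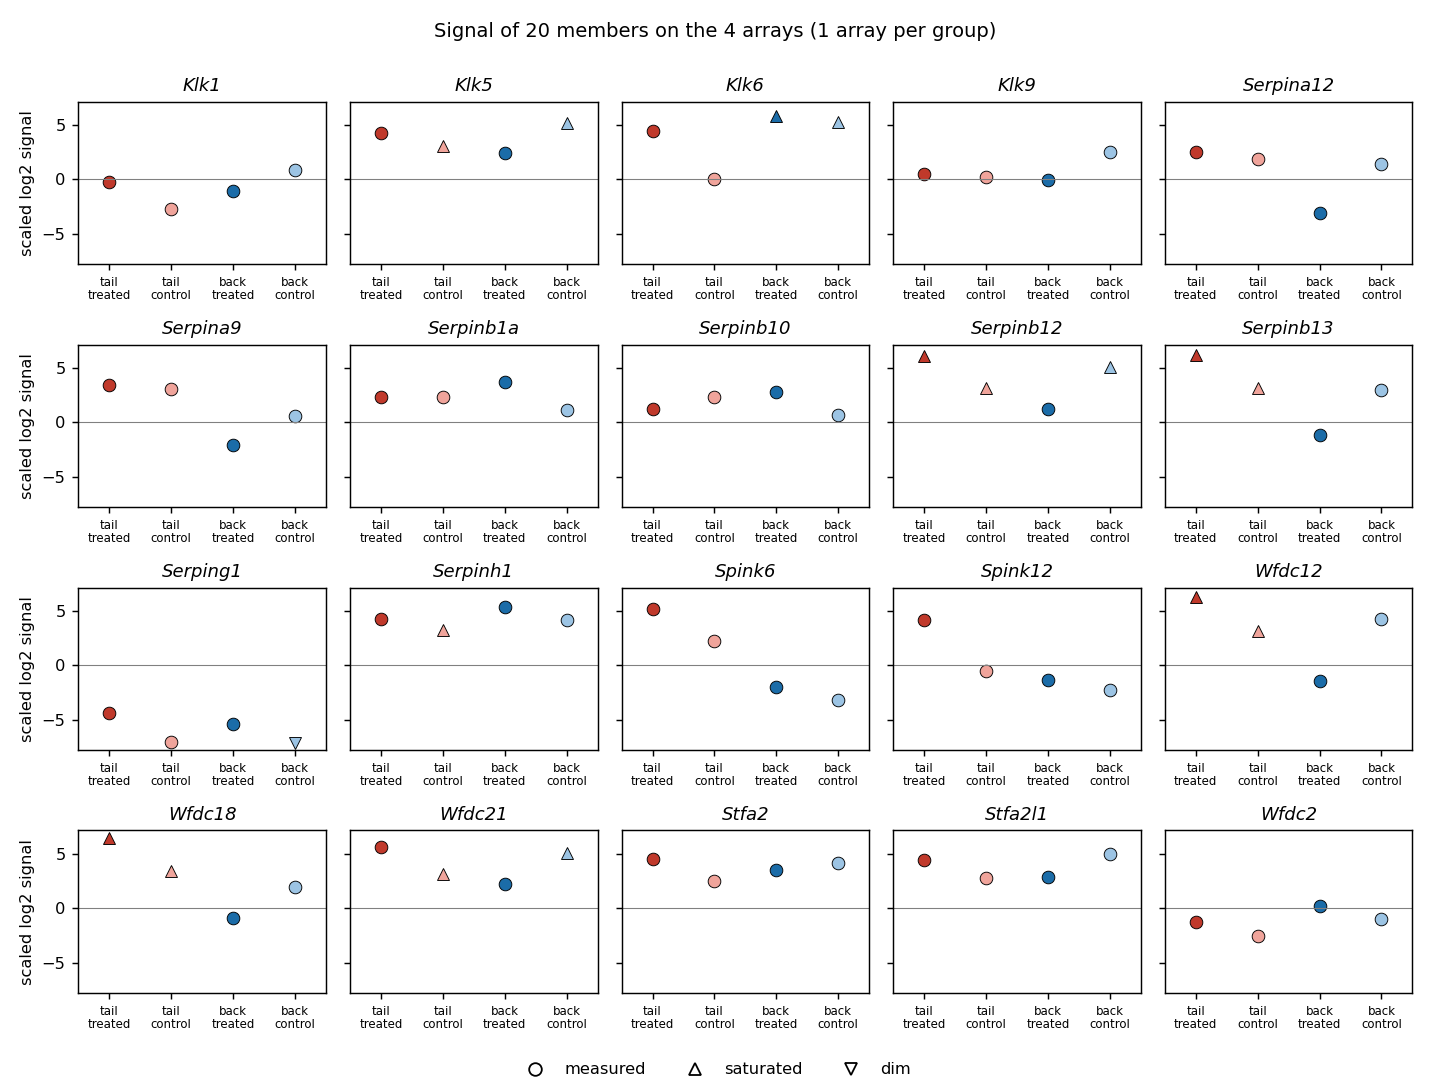
Scaled log2 signal of 20 members on each of the 4 arrays, 1 point per array, with 0 at the 75th percentile of that array; upward triangles are saturated and downward ones dim readings. Treated back is the low array for Serpina12, Serpinb13 and Wfdc12, and the highest for Serpinb1a.

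The responses of the 2 sites were set side by side for the 53 members with a value at both. They share no array, but dose, shaving and site differ together, so these cannot be told apart. Of the 53, 6 were higher at both sites and none was lower at both, where 3.72% and 1.2% of all genes had these patterns. The 6 were Serpina3n, Serpinb6d, Serping1, Spink2, Spink6 and Wfdc2. Spink6 and Wfdc2 stayed past 2-fold at both sites under the other scalings and background corrections run. Serpinb6d at 0.95 and Spink2 at 0.94 were under 2-fold in the tail after cyclic loess, and Serpina3n at 0.91 and Serping1 at 0.74 were under it in the back with normexp background correction. Klk1, Klk14, Stfa2l1 and Wfdc1 were higher in the tail and lower in the back, against 2.88% of all genes. The remaining members were called at 1 site or at neither.

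**Figure D4:**
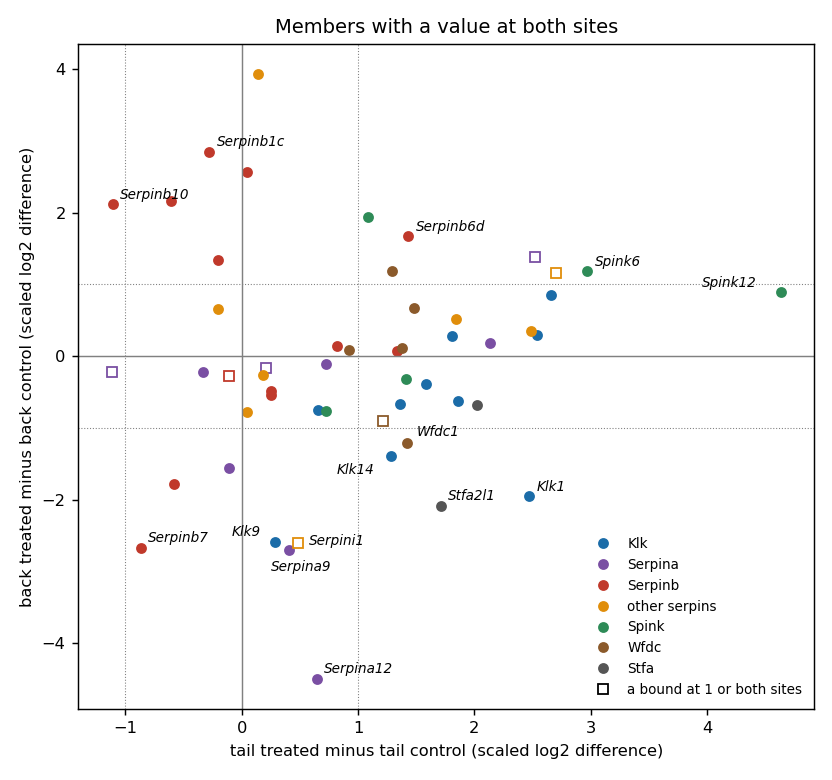
Treatment difference of the 53 members in the tail (horizontal) and the back (vertical), both scaled log2; dotted lines mark 2-fold and open squares hold a bound. Serpinb1c is high on the back axis and near 0 on the tail axis, Spink12 the reverse, and Klk1 lies at 2.47 and -1.95.

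Both sites were also compared directly. Between the untreated skins, control back minus control tail, 28 of 61 members were higher and 20 lower, where 27.4% of all genes were higher and 17.2% lower. Kallikreins were higher in control back in 10 of 12 cases, with a median of 2.00. No clade A serpin was higher and 6 of 10 were lower. Spink4, known from intestinal goblet cells, was higher by 5.05 and Klk1 by 3.60, while Spink6 differed by -5.41 and Serpina1d by -3.12. The second, dimmer probe of Klk1 differed by only 0.18 between the untreated skins. The other serpins were higher in 6 of 8 cases. Serpinc1, or antithrombin, was higher by 3.57 with its brighter probe but by 1.82 with its second probe, and Serpind1 by 3.36.

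Between the treated skins, treated back minus treated tail, 19 of 73 members were higher and 32 lower, where 15.9% of all genes were higher and 20.5% lower. That pair leaves out the control tail array. Serpinb1a and Serpinb1c were higher by 1.35 and 1.72. Klk6 was at least 2.64-fold higher. Wfdc12, Wfdc18 and Serpinb13 differed by -7.67, -7.33 and -7.29 or lower, and Spink6 and Spink12 by -7.19 and -5.46. The median of the Klk genes was -0.52, against 2.00 between the untreated skins, with 2 of 15 higher and 3 lower.

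Hair shaft keratins moved with the site. All 9 on the array were saturated in control tail and 8 in treated tail, and none was saturated in back skin. Their summed level was 624 in treated tail and 81.4 in control tail, against 0.949 in treated back and 9.67 in control back. Saturated probes had a median level of 70.0 in treated tail and 8.90 in control tail. The 2 tail sums therefore cannot be set against each other. Within back skin 8 of 9 hair shaft keratins were lower in treated skin, with a median of -1.78, against 12.6% of all genes. Whether hair follicles carry the site differences of Spink6, Spink12 or the Wfdc genes was not tested.

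**Figure D5:**
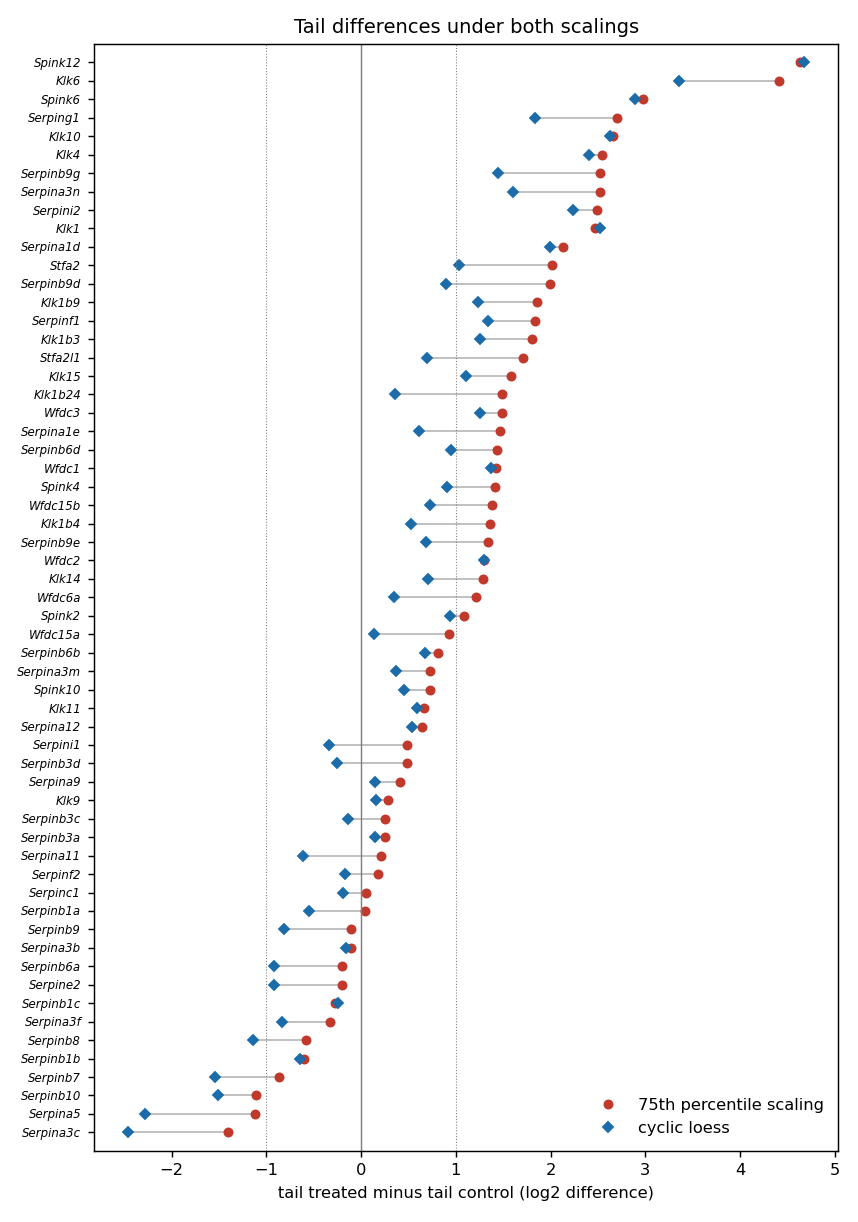
Tail differences under 75th percentile scaling (circles) and after cyclic loess (diamonds), ordered by the first, with lines joining the pair and dotted lines at 2-fold. Shown are all members with a value under both, except the member not reported here. Spink12, Spink6, Klk10, Klk1 and Klk4 hardly move, while many members of low or of high signal move down. Klk1b24 and the stefins thereby move towards 0. Serpina3c, from -1.40 to -2.46, and Serpinb7, from -0.87 to -1.54, move away from it.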

How the data were processed

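The scanner's processed signal, as deposited, is an intensity after background subtraction by Agilent Feature Extraction 10.5.1.1, not normalized across arrays, per the file headers; the submitters' processing notes name version 10.7. The authors' deposited value table is on a log2 scale, per probe centred on its median over the 4 arrays, with column medians of 0.10 in treated tail, -0.28 in control tail, 0.08 in treated back and -0.03 in control back; between arrays it followed the processed signal up to a constant, within 0.01 for at least 99.7% of probes, which settles its scale and direction. How it was made is not given in the sources used here.

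Processed signals were put on the log2 scale after division by the 75th percentile of their array. Outlier spots were left out and repeated spots averaged. Of 41174 probes, 24375 (59.2%) were paired with 1 symbol by accession, using RefSeq's GRCm38.p6 table, none with several and 16799 with none; the headers name mm8, so no array coordinates are given. The 94 members had 112 probes, and 17 had 2 or more. A probe dim on 1 array was set to that array's lowest signal well above background, or to its own where higher; genes dim or saturated on both arrays, or pointing against the bound, had no value. Bounds entered medians as they stand. All 4 arrays came from 1 slide, so position and group cannot be told apart, and the number of arrays limits the precision. No p-value is given.

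The members, lists and tests were chosen with earlier results of these data known. Named were, per comparison and family, the 4 largest measured differences, every call resting on a bound, and a list of skin and wound genes; Klk13, Serpinb6c, Serpina3g and Stfa1 of that list were not analysed here, and further members were named after their values were seen. The values of 1 member that is part of the counts are not reported here. Alternatives were quantile normalization, cyclic loess, the median of detected probes, normexp background correction with an offset of 50, measured values only, no filter, a signal of at least 200, outlier spots kept, the mean over probes, the authors' table and other thresholds. Software was Python 3.11.15, pandas 2.3.3, R 4.3.3 and limma 3.58.1.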

Additional observations from a re-analysis of the deposited data

Results flagged for a closer look

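Members called in opposite directions by treatment in the tail and the back are listed here; with 1 array per group the difference between the sites was not tested. Back minus tail, the differences of the responses were -4.42 for Klk1, -3.80 for Stfa2l1, -2.68 for Klk14, -2.64 for Wfdc1 and 3.22 for Serpinb10. After cyclic loess Klk1, Wfdc1 and Serpinb10 were still past 2-fold at both sites, while Klk14 and Stfa2l1 fell short in the tail at 0.71 and 0.70.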

How the results depend on the processing

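Of 31 named calls in the tail, 19 were past 2-fold under all 4 other scalings or background corrections (quantile, cyclic loess, median of detected probes, normexp); so were 28 of 33 in the back, 37 of 45 between untreated and 35 of 49 between treated skins. Lost in the tail were Klk14, Serpina1e, Serpina3c, Serpinb6d, Serpinb9d, Serpinb9e, Spink2, Spink4, Stfa2l1, Wfdc15b, Wfdc3 and Wfdc6a. Faint members could rise in the tail under normexp, as Serping1 did from 2.70 to 4.93, so holding a higher call under it says little for them. Lost in the back were Klk14, Klkb1, Serpina3n, Serpind1 and Serping1. The median of all genes moved in the tail by -0.31 with quantile, -0.41 with loess and 0.29 with normexp, in the back by 0.14 with normexp, between untreated skins by -0.30, -0.31 and 0.15 and between treated skins by 0.13, 0.12 and -0.39 in that order.

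Tail counts of 31 higher and 3 lower became 19 and 5 after cyclic loess; 57 were higher without a filter, 16 higher and 1 lower with a signal of at least 200, 18 higher and 0 lower at 3-fold, and 5 lower at 1.5-fold. Back counts of 14 higher and 20 lower gave 7 higher at 3-fold and 12 lower with a signal of at least 200. Between untreated skins, 28 and 20 became 44 higher without a filter, 14 and 10 with a signal of at least 200, and 11 lower at 3-fold. Between treated skins, 19 and 32 became 9 higher under normexp (46 lower), 9 and 13 with a signal of at least 200, and 9 higher at 3-fold. A signal minimum or a higher threshold tests or calls fewer genes by construction; for the others the cause was not tested.

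Among named values past 2-fold, directions turned for Serpina3c in the tail (3.35 under normexp), Serpine2 between untreated skins (0.17 under normexp), and Serpinc1, Serpinf2 and Spink4 between treated skins (-0.19, -1.06 and -0.94 under normexp). Values under 2-fold turned as well, among them Serpine2 at 3.61 and Serpina3f at 2.26 in the tail under normexp, in place of -0.20 and -0.33. List medians turned without a filter for basal markers in the tail (2.86), suprabasal markers in the back (0.36) and Spink between untreated skins (0.29); with a signal of at least 200 for adipocyte markers between untreated skins (-0.17) and neutrophil markers between treated skins (-0.019); and under normexp for neutrophil (-1.88) and macrophage markers (-0.048) between treated skins. The cause was not tested.

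Naming by a gene-name column was not run, because the scanner files hold accessions. No paired analysis was possible because each group has 1 array and no replicate number, and no replicate could be left out. Second probes went the same way in 7 of 8 members in the tail, 11 of 11 in the back and 11 of 14 between treated skins; Serpinc1 was 2.75 by one probe and -0.98 by the other there. Saturation above 8.08 on the control tail array is a limit of the tail comparison.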
